A study of Mus musculus with 2 samples.

Results

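CD8 T cells of the first of 2 pooled liver libraries were compared here according to whether the deposited cell table names them as TG or leaves them without a name. A cell was taken when it held at least 1 unique molecular identifier (UMI, a tag that counts each captured messenger molecule once) of Cd8b1 and of Cd3e and none of Cd79a, a B cell receptor chain. The rule found 1370 cells among the 10026 cells of this pool and the 34137 cells of the series, of which 575 were named TG and 795 had no name. Cd8b1, Cd3e, Cd79a and the name chose these cells, so their values are given as a description.

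The series holds CD45+ immune cells from the livers of mouse models of primary biliary cholangitis, an autoimmune disease of the small bile ducts, captured with BD Rhapsody and read for messenger RNA and for 49 surface proteins. The first pool mixed cells of dnTGFβRII mice (TG), whose T cells make a truncated human TGF-β type II receptor from a Cd4 promoter, with cells of IFN-γ ARE-Del-/- mice, which lack an AU-rich element of the Ifng messenger. The labels give C57BL/6 mice of 10 weeks, whereas the methods state a lower age, and the number of mice in the pool was not given. The Cd4 promoter is active in CD4+ and CD8+ T cells, and the ARE deletion is carried by every cell of the mouse. The second pool, with cells of P40-/-IL-2Ra-/- and wild type (WT) mice, is used here only for WT values of single genes.

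The unnamed cells are not a genotype. They may hold IFN-γ ARE-Del-/- cells, TG cells that the authors removed, and cells tagged by both sample tags, and their shares cannot be told apart from the sources used here. TG-named and unnamed cells went through the same capture and the same library. With 1 library and no map of cells to mice there is no replicate, and no difference below has a test. The intervals given are 95% exact Poisson intervals of summed UMIs, exact conditional intervals of ratios or Clopper-Pearson intervals of shares, and they reflect only how many molecules or cells were counted, not how far mice or cells vary.

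CD8 T cells read peptides on MHC class I molecules and, once activated, kill target cells with granzymes and perforin and release IFN-γ. IFN-γ binds its receptor, which acts through JAK kinases to induce guanylate-binding proteins (Gbp genes), immunity-related GTPases (Irg genes) and the class I pathway. Cells exposed to antigen for long carry inhibitory receptors such as PD-1, LAG-3 and TIGIT together with the transcription factor TOX, and TGF-β restrains T cell activation and induces the integrin CD103. The AU-rich element that IFN-γ ARE-Del-/- mice lack is a sequence that speeds the decay of the Ifng messenger.

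The CD8 T cells by this rule were 12.4% (11.4 to 13.4) of all TG-named cells and 14.8% (13.8 to 15.8) of all unnamed cells of the pool. TG-named cells summed to 2668609 UMIs, with a median of 4133 per cell (1370 to 14429), and unnamed cells to 3446385, with a median of 3453 (1402 to 30112). The median mitochondrial share was 5.38% and 4.66%, and 730 of the 795 unnamed cells lay within the range set by the 1st and 99th percentiles of the TG-named cells in UMIs, genes and mitochondrial share. Cells just inside the rule, with 1 Cd8b1 UMI, made up 17.4% of TG-named and 23.8% of unnamed cells. Cells just outside it, with Cd8b1 and Cd3e but also Cd79a, numbered 206 and 329. The pools share 267 cell indexes, of which 18 belonged to TG-named and 32 to unnamed CD8 T cells. Without these cells the log2 ratios described below were 0.93 for Ifng, -0.98 for Tgfbr2 and 2.48 for Tox, and 125 and 22 genes lay past 2-fold, beside 132 and 23 with them.

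The defining markers of CD8 T cells were present in most of the chosen cells. Cd8a was seen in 84.7% of TG-named and 85.5% of unnamed cells, Trac, the constant chain of the α receptor, in 93.0% and 92.7%, and Trbc2, of the β receptor, in 96.2% and 97.4%. Among the TG-named cells, the authors' own names were CD8αβ T cell for 505 (87.8%), CD8αα for 13, NKT for 20, CD4 for 16 and NK for 15, with 6 cells under myeloid or plasmacytoid names. Cd4 was seen in 32.0% of TG-named and 13.1% of unnamed cells. Hepatocyte, erythroid and platelet markers reached at most 1 UMI per cell, with Apoc3, Ttr, Serpina1c and Fgb at 0 in both groups, and Pf4 and Gp9 as well. Alb and Apoa1 were at 0 in TG-named cells only, and Hba-a1 in unnamed cells only. The hepatocyte markers summed to 4 UMIs in TG-named and 18 in unnamed cells.

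RNA of other cells was present in both groups. Igkc, an antibody light chain of B cells, gave 1762 UMIs in TG-named and 2352 in unnamed cells, a log2 ratio of 0.05, and S100a8, of neutrophils, gave 823 and 948, a log2 ratio of -0.17. The 6 neutrophil markers had a median log2 ratio of -0.11. All 6 dendritic cell markers were higher in unnamed cells, with a median log2 ratio of 1.69. At least 2-fold higher, beside 7.32% of all genes, were 5 of these markers. Their summed level, most of it Bst2 (211 and 314 UMIs), was 92.2 CPM (UMIs of a gene scaled to a total of 1000000 for the group) in TG-named and 137.2 CPM in unnamed cells, with 0 to 35 and 0 to 63 UMIs per cell. Cd74, the MHC class II invariant chain, stood at 1097 and 3431 UMIs. It is also among the 8 B cell markers, of which 5 were higher and 3 lower, with a median log2 ratio of 0.06. These markers summed to 1316 and 1927 CPM, with 0 to 78 UMIs per cell in TG-named and 0 to 559 in unnamed cells. The macrophage or monocyte markers summed to 2060 and 1424 CPM, most of it Ly6c2 (-0.62), which T cells also express, and 3 of 4 measured were higher with a median of 0.28 (2 of 4 and -0.02 with equal weight for each cell). Of these, Csf1r stood at 34 and 145 UMIs, while Vsig4, of Kupffer cells, was at 0 in both groups. C1qa and C1qb, of macrophages, were at 0 in TG-named cells but not in unnamed cells. The 6 NK cell markers, of which CD8 T cells express several, were higher in 5 of 6 with a median of 0.78, and summed to 706 and 1198 CPM. The part of these cells in the results below was not tested. As a background from the same library, 1994 B cells (Cd79a and Cd79b present, Cd3e absent, 977 named TG and 1017 unnamed) were read in the same way. The share of all genes higher in unnamed B cells was not counted, so the list counts for B cells below have no such share beside them.

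The summed profiles differed little for most genes. Over 6969 genes with at least 100 UMIs, the median size of the log2 ratio was 0.19. In unnamed cells 132 genes (1.89%) were at least 2-fold higher and 23 genes (0.33%) at least 2-fold lower. Among the 11055 genes with at least 10 UMIs, which the gene lists below use, 809 (7.32%) were at least 2-fold higher and 207 (1.87%) at least 2-fold lower, and at any size 62.5% were higher and 37.5% lower, with a median of 0.10. This tilt depended on the scaling. After TMM scaling, or totals without ribosomal protein and mitochondrial genes, each of which shifted all log2 ratios by -0.09, the share of genes higher at any size was 51.4% and 52.1%. Of the 2-fold genes, 8 higher and 6 lower had over 50% of their UMIs in 3 cells of the higher group.

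**Figure D1:**
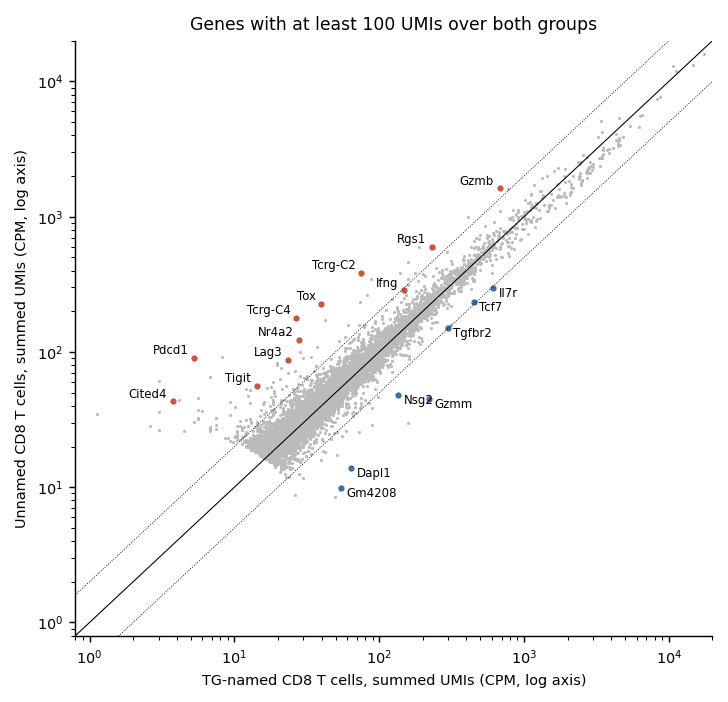
Summed level of each gene in TG-named (x axis) and unnamed (y axis) CD8 T cells, in CPM on log axes, for the 6969 genes with at least 100 UMIs. The solid line marks equal levels and the dotted lines 2-fold differences. Pdcd1, Cited4 and Tox lie far above the upper dotted line and Gm4208, Dapl1 and Gzmm far below the lower line, while most genes lie between the dotted lines.

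Among genes with at least 10 UMIs in each group, Pdcd1, which encodes PD-1, had the highest log2 ratio, with 14 UMIs in TG-named and 313 in unnamed cells. Cd200r2, a receptor of the Cd200r1 family, stood higher (8 and 209 UMIs, 4.34) but had fewer than 10 UMIs in TG-named cells and was picked after its values were seen. Pdcd1 was followed by Cited4, a transcriptional coactivator (10 and 149 UMIs, log2 ratio 3.53), 2900026A02Rik (3.48), Car2, a carbonic anhydrase (3.27), Tcrg-C4, a constant gene of the γ receptor chain (2.75), Cd200r1, an inhibitory receptor (2.72), Itih5 (2.61), Ube2l6, which attaches ISG15 to proteins (2.54), Csf1, a growth factor of macrophages (2.54), Tox (2.52), Tmem176b (2.51) and Tcrg-C2 (2.37). Without cells holding UMIs of other lineages Tmem176b stood at 0.15.

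At the lower end stood Gm4208 (-2.47), Gzmm, which encodes granzyme M (-2.30), Dapl1 (-2.20), Fcgrt, the neonatal Fc receptor (-1.63), Ifngas1, a long noncoding RNA next to Ifng (-1.56), Nsg2 (-1.49), Fhl2 (-1.35), Aqp9, a glycerol channel (-1.32), Ms4a4c (-1.21), Slc16a1, a lactate transporter (-1.19), Gpr183, an oxysterol receptor (-1.17), and Tnfrsf26 (-1.14).

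Ifng, the gene whose messenger lacks its AU-rich element in 1 of the genotypes pooled, lies at chr10:118441046-118445892 on the plus strand (mm10, equal to GRCm38). It stood at 394 UMIs, 147.6 CPM (133.4 to 163.0), in TG-named cells and at 982 UMIs, 284.9 CPM (267.4 to 303.3), in unnamed cells, a log2 ratio of 0.95 (0.78 to 1.12). The intervals of the levels did not overlap. An Ifng UMI was found in 36.2% of TG-named and 51.7% of unnamed cells, and after each cell was thinned to 1000 UMIs in 12.3% (9.77 to 15.3) and 23.1% (20.3 to 26.2).

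In B cells, which should make little of it, Ifng was seen in 3.21% of cells at a median of 2923 UMIs per cell, and in 0.953% after thinning. Its level there was 10.57 CPM in TG-named and 11.99 CPM in unnamed B cells, a log2 ratio of 0.18 (-0.49 to 0.86). The WT-named CD8 T cells of the second pool, chosen by the same rule, held 138.8 CPM (125.0 to 153.9), but there the library and the genotype cannot be told apart. Ifngas1, at chr10:118502035-118556525 on the minus strand and without overlap with Ifng, went the other way, with 137 UMIs in TG-named and 60 in unnamed cells.

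Tgfbr2, the mouse gene for the TGF-β type II receptor, at chr9:116084293-116175360 on the minus strand, was lower in unnamed cells. Its 791 UMIs gave 296.4 CPM (276.1 to 317.8) in TG-named cells and its 522 UMIs gave 151.5 CPM (138.7 to 165.0) in unnamed cells, a log2 ratio of -0.97 (-1.13 to -0.81). It was seen in 65.7% and 42.5% of cells, and after thinning in 26.96% and 14.59%. In B cells, where the Cd4 promoter is not active, the levels were 177.1 and 183.3 CPM, a log2 ratio of 0.05 (-0.11 to 0.21). WT-named CD8 T cells of the second pool held 159.8 CPM (144.9 to 175.9). Whether UMIs of the human transgene were counted under this gene was not tested.

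Among the other 18 measured genes of the TGF-β pathway list, most differed little. The 19 genes had a median log2 ratio of 0.11, with 12 higher and 7 lower, near the median of 0.10 and the 62.5% higher of all genes. Smad3, which carries the signal of the receptor, was lower (-0.47), Smad7, an inhibitor that the pathway induces, stood at 0.12 (-0.11 to 0.35), and Ski, a repressor, at -0.16. Higher by at least 2-fold were Itgae, the CD103 integrin chain that TGF-β induces (12 and 69 UMIs), Pmepa1, a target of the pathway (37 and 96 UMIs), and Tgif2 (10 and 28 UMIs). The count past 2-fold, 3 of 19, stands beside 7.32% of all genes. Over the alternatives of the closing section Pmepa1 ranged from 0.56 to 1.08, so it did not stay past 2-fold in all.

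Of the 18 measured IFN-γ inducible GTPases, all were higher in unnamed cells, with a median log2 ratio of 0.68, and all 18 also after TMM scaling. At least 2-fold higher were 5 of them, beside 7.32% of all genes. Iigp1, an immunity-related GTPase, stood at 21.0 CPM (15.9 to 27.3) in TG-named and 75.7 CPM (66.8 to 85.5) in unnamed cells, and Gm4951, of the same family, at 5 and 61 UMIs. Igtp stood at 78.7 and 154.1 CPM (0.97), Irgm2 at 37.8 and 68.5 CPM (0.86), Gbp6 at 35.6 and 72.5 CPM (1.03) and Gbp2 at 74.6 and 117.8 CPM (0.66). At the lower end were Gbp9 (0.14), Gbp7 (0.18), Gbp8 (0.22) and Ifi47 (0.27). Tgtp1 (8 and 29 UMIs) and Tgtp2 (50 and 80 UMIs) are near-identical genes whose reads may have been shared between them, so their separate values are uncertain. The annotated spans of Igtp and Irgm2 overlap on the same strand, as do those of Gbp4, Gbp8 and Gbp9. Whether reads of these genes were shared was not tested.

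RefSeq promoter windows, from 250 bases before to 50 bases after the start of transcription, were read for 11 of the 20 listed GTPase genes. They were searched on both strands for the interferon-γ activated site GAS, TTCNNNGAA, and for the interferon-stimulated response element ISRE, GAAANNGAAA, which is bound by IRF proteins. GAS is its own reverse complement. A GAS was present in 6 and an ISRE in 10 of the 11 genes, whereas 8.30% and 3.44% of all 32851 windows held them. In 4 genes, Igtp, Irgm2, Tgtp1 and Tgtp2, both began within 20 bases of each other, as in 0.131% of all windows. Their stretches (GRCm38, 5′ to 3′ on the strand of the gene, GAS and ISRE in capitals) are shown because the members lie in 2 groups of related genes with the same arrangement:
Igtp (chr11:58199491-58199551, plus strand): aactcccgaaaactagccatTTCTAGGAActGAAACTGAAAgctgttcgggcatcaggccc
Irgm2 (chr11:58214882-58214942, plus strand): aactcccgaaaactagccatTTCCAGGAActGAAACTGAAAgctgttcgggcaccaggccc
Tgtp1 (chr11:48992294-48992354, minus strand): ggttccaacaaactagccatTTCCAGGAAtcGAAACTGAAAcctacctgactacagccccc
Tgtp2 (chr11:49064253-49064313, minus strand): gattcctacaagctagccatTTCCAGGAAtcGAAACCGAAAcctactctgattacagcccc

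The ISRE began 11 bases after the start of the GAS in each of the 4 stretches. Igtp and Irgm2 had 59 of 61 bases in common, Tgtp1 and Tgtp2 had 47 of 61, and Igtp and Tgtp1 had 39 of 61. A pair of members without this arrangement is shown for comparison, with the ISRE in capitals. In Irgm1 a pair of ISRE matches overlaps, and in Gbp2 the ISRE reads on the opposite strand.
Irgm1 (chr11:48871421-48871470, minus strand): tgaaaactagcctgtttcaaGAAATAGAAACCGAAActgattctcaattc
Gbp2 (chr3:142620584-142620633, plus strand): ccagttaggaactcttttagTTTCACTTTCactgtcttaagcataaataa

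The log2 ratio of Irgm1 was 0.27 and that of Gbp2 was 0.66. Beside them stood 0.97 for Igtp, 0.86 for Irgm2, 1.49 for Tgtp1 on 8 and 29 UMIs and 0.31 for Tgtp2. These members with and without the arrangement thus overlapped. Windows of listed genes on chromosome 18, where Iigp1 and Gm4951 lie, were left out of the search. The shares over all windows were taken without this exclusion. The place of Iigp1 and Gm4951 in this comparison was therefore not tested. Of the class I genes listed next, 19 of 22 had a window, of which 2 held a GAS, 5 an ISRE and 0 both within 20 bases. A match of letters is a description of these windows and says nothing of what binds there.

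The class I pathway stood higher by less. All 22 measured genes of MHC class I presentation and the immunoproteasome were higher in unnamed cells, none by 2-fold, from 0.11 to 0.59 with a median of 0.29. Tap1, a peptide transporter, stood at 547 and 1063 UMIs (0.59), Tapbpl, which edits the bound peptides, at 0.54, Nlrc5, the class I transactivator, at 0.51 and H2-T23 at 0.48. The most abundant members, H2-K1 (0.27), H2-D1 (0.29) and B2m (0.26), differed less. After TMM scaling all 22 were still higher, with a median of 0.20.

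Of 25 mediators of JAK-STAT signaling, 16 were higher and 9 lower, beside 62.5% of all genes higher, with a median of 0.21. Irf8 (1.17), a transcription factor that IFN-γ induces, Cish (1.21), an inhibitor of cytokine receptors, and Ifngr2 (16 and 64 UMIs), the signaling chain of the IFN-γ receptor, were at least 2-fold higher. Irf8 was seen in 12.3% and 22.4% of cells and in 66.6% of B cells, and it stood at 0.57 in cells with at least 2 Cd8b1 UMIs and at 0.74 without cycling cells. Irf1 stood at 0.28, Socs1 at 0.36 and Ifngr1, the binding chain, at -0.08 (-0.22 to 0.06). The 44 genes of the type I interferon list showed no such shift, with 25 higher, 19 lower and a median of 0.05 (21 higher and a median of -0.04 after TMM scaling), among them Isg15 (0.61), Ifit3 (0.46), Mx1 (-0.09), Usp18 (-0.57) and Epsti1 (-0.65).

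B cells of the same pool gave a like order of these lists. The GTPases were higher in 17 of 19 measured genes with a median of 1.02 and Gbp2b, on 244 and 60 UMIs, as the lowest at -2.02, the class I genes in 22 of 22 with a median of 0.38 and the type I interferon list in 24 of 44 with a median of 0.04. Igtp had a log2 ratio of 1.54 (1.27 to 1.82) and Iigp1 2.78 (2.50 to 3.06) in B cells. Markers of other cells moved with these values, since 8 of 8 macrophage or monocyte markers (median 2.34) and 6 of 6 neutrophil markers (median 1.16) were higher in unnamed B cells, and their part was not tested. The B cells and the CD8 T cells are different cells of the same library, and B cells held no Ifng above the level given for them.

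**Figure D2:**
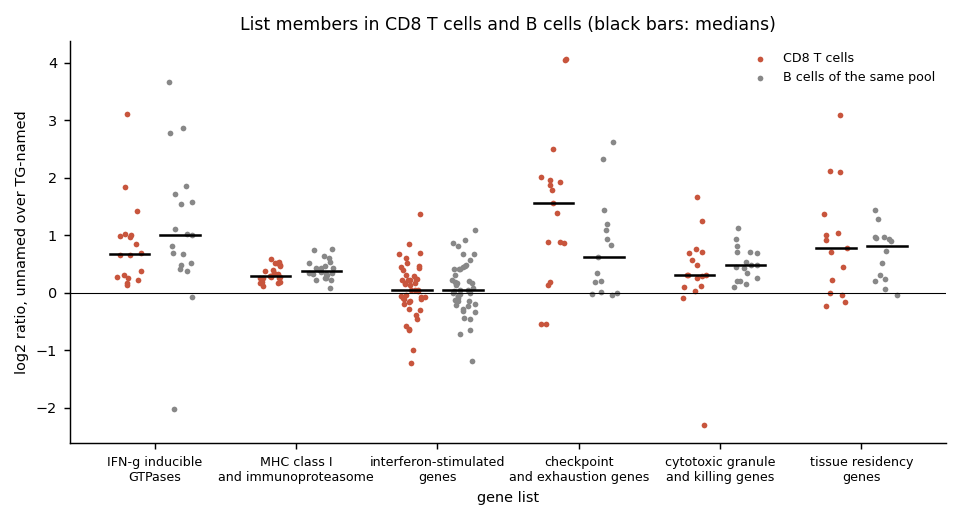
Log2 ratio of unnamed over TG-named cells for the measured members of 6 gene lists, in CD8 T cells (red) and in B cells of the same pool (grey), with 1 point per gene and black bars at the medians. The class I points lie above 0 in both cell types, and the median of the checkpoint list is 1.56 in CD8 T cells and 0.62 in B cells.

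Among the lists of T cell function, that of checkpoint and exhaustion genes had the highest median. Of 17 measured members, 15 were higher and 2 lower in unnamed cells, 10 were at least 2-fold higher, beside 7.32% of all genes, and the median was 1.56. Pdcd1, at chr1:94038305-94052553 on the minus strand, stood at 5.25 CPM (2.87 to 8.80) in TG-named and 90.8 CPM (81.0 to 101.5) in unnamed cells, a log2 ratio of 4.11 (3.35 to 5.002). A Pdcd1 UMI was found in 9 of 575 TG-named cells (1.57%), in 158 of 795 unnamed cells (19.9%) and in 7 of 1994 B cells (0.351%), and after thinning in 0.522%, 7.17% and 0.150%. The TG-named share after thinning (0.108 to 1.52) overlapped that of B cells (0.031 to 0.439), so at equal depth Pdcd1 in TG-named cells was not separated from the background of this library.

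Tox, which drives the exhaustion program, stood at 39.7 CPM (32.5 to 48.04) and 227.2 CPM (211.6 to 243.7), a log2 ratio of 2.52 (2.22 to 2.82), and was seen in 13.9% and 36.6% of cells. Its relative Tox2 had 2 and 53 UMIs. Among the inhibitory receptors, Lag3 stood at 23.6 and 87.3 CPM (1.89), Tigit at 14.2 and 56.3 CPM (1.98), Ctla4 at 14 and 71 UMIs, Cd244a at 63 and 241 UMIs (1.57) and Havcr2, which encodes TIM-3, at 18 and 62 UMIs. Ikzf2, which encodes the transcription factor Helios, stood at 42.3 and 171.8 CPM (2.02). Entpd1 (0.88) and Cd38 (0.87), enzymes of the cell surface, were higher by less than 2-fold, Cd160 (0.18) and Eomes (0.14) differed little, and Btla (-0.53) and Nt5e (-0.55) were lower.

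Members of the checkpoint list were also counted together in single cells. The 10 members used were chosen with earlier results known and were each higher in unnamed cells by summed UMIs. Cd160, Eomes, Btla and Nt5e were not used. The counts thus follow in part from the differences gene by gene. Whether members fell together more often than their single shares would give was not tested. With each cell thinned to 1000 UMIs, 2 or more of 10 members (Pdcd1, Tox, Tox2, Lag3, Tigit, Havcr2, Ctla4, Cd244a, Ikzf2 and Entpd1) were found in 19 TG-named cells (3.30%, 2.00 to 5.11), in 142 unnamed cells (17.9%, 15.3 to 20.7) and in 3 B cells (0.150%, 0.031 to 0.439). Among these 10, Tox (18.1% of unnamed cells) and Ikzf2 (12.5%), which encode transcription factors, were seen most often. The most found in a single cell were 4 in TG-named and 5 in unnamed cells. The TG-named cells that the authors called CD8αβ gave log2 ratios, when set against the unnamed cells, of 4.18 for Pdcd1, 2.60 for Tox, 2.01 for Lag3 and 0.98 for Ifng, and of 2.54 for Ikzf2, 2.63 for Ctla4 and -0.17 for Cd4, where all TG-named cells gave 2.02, 1.97 and -0.56.

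**Figure D3:**
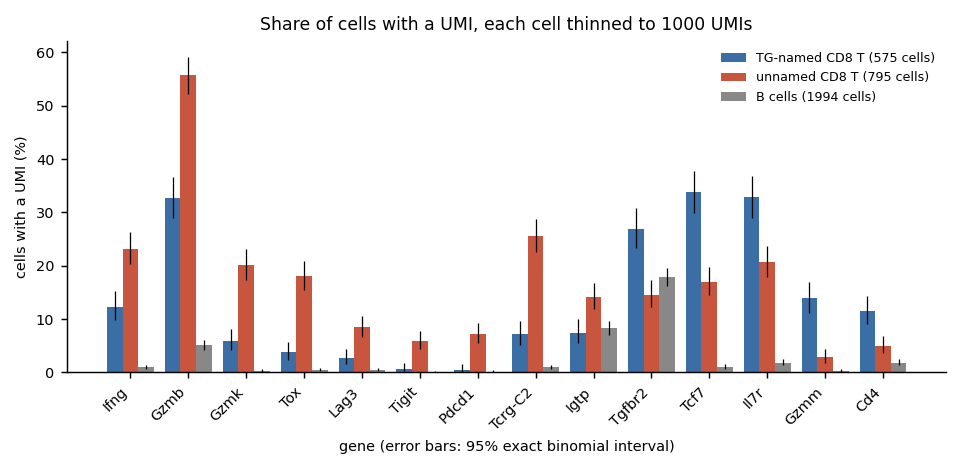
Share of cells with a UMI of each gene after every cell was thinned to 1000 UMIs, in TG-named CD8 T cells (blue), unnamed CD8 T cells (red) and B cells (grey), with 95% exact binomial intervals. Pdcd1, Lag3 and Tigit are near 0 in B cells, Tgfbr2 is not, and Tcf7, Il7r, Gzmm and Cd4 are higher in TG-named cells.

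Since γ receptor constant genes were among the leading genes, the cells were also split by them. Cells with a UMI of Tcrg-C1, Tcrg-C2 or Tcrg-C4 numbered 136 of the TG-named (23.7%, 20.2 to 27.3) and 390 of the unnamed cells (49.1%, 45.5 to 52.6), and this split was chosen after the values were seen. These genes are also transcribed in αβ T cells. Of the cells with such a UMI, 88.2% of the TG-named and 93.8% of the unnamed also held UMIs of both Trac and Trbc2. Over all chosen cells Trdc, the constant gene of the δ chain, was lower in unnamed cells (226 and 144 UMIs, -1.02). Without cycling cells Trdc stood at -0.05 (-0.43 to 0.33), and in cells with at least 2 Cd8b1 UMIs at -0.34 (-0.77 to 0.10). The median antibody count for TCR-β was 46.5 in TG-named cells with such a UMI and 99 in those without, and 31.5 and 80 in unnamed cells. The median depth of the 4 groups was 3813, 4210, 3502 and 3400 UMIs.

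Most of the Pdcd1 signal lay in unnamed cells that held a γ constant UMI. Of the 158 unnamed cells with Pdcd1, 132 (83.5%) were among the 390, and they carried 87.5% of its UMIs. The share with Pdcd1 was 33.8% (29.2 to 38.8) in these cells and 6.42% (4.24 to 9.27) in the other 405 unnamed cells, beside 1.47% (0.179 to 5.21) and 1.59% (0.643 to 3.26) in TG-named cells with and without a γ constant UMI. Thus the γ constant UMI went with Pdcd1 in unnamed cells, and in TG-named cells the shares were at a like low level.

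Pdcd1, Tox, Lag3 and Tigit had larger log2 ratios among cells with a γ constant UMI. There unnamed over TG-named was 4.20 for Pdcd1, 2.64 for Tox, 2.13 for Lag3 and 2.57 for Tigit, against 2.44, 1.23, 0.88 and 0.59 in cells without. Cd244a (0.87 against 1.03) and Havcr2 (1.28 against 1.56) of the same list did not follow this order. Rgs1 (1.79 against 0.48), Nr4a2 (2.48 against 1.05) and Tnfrsf9 (3.41 against 0.09) followed this order, and Cd7, which encodes a surface glycoprotein of T and NK cells, stood at 1.10 against -0.07. The median of the checkpoint list was 1.56 with and 0.72 without, that of the residency list 0.87 and 0.25, and that of the naive and memory list -0.78 and 0.01.

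Other genes did not follow this split. Ifng stood at 0.76 and 0.97, Tgfbr2 at -1.09 and -0.92, Gzmb at 0.96 and 0.84, Gzmk at 1.55 and 1.60 and Iigp1 at 2.31 and 2.11 in cells with and without a γ constant UMI. Igtp (0.52 and 1.24) was higher in both, and the GTPase list had medians of 0.69 and 0.87. The terminal effector genes Cx3cr1 (-1.20 and 0.24) and Klrg1 (-1.16 and 0.06) changed sign between the groups. None of these differences between the 2 groups of cells was tested.

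**Figure D4:**
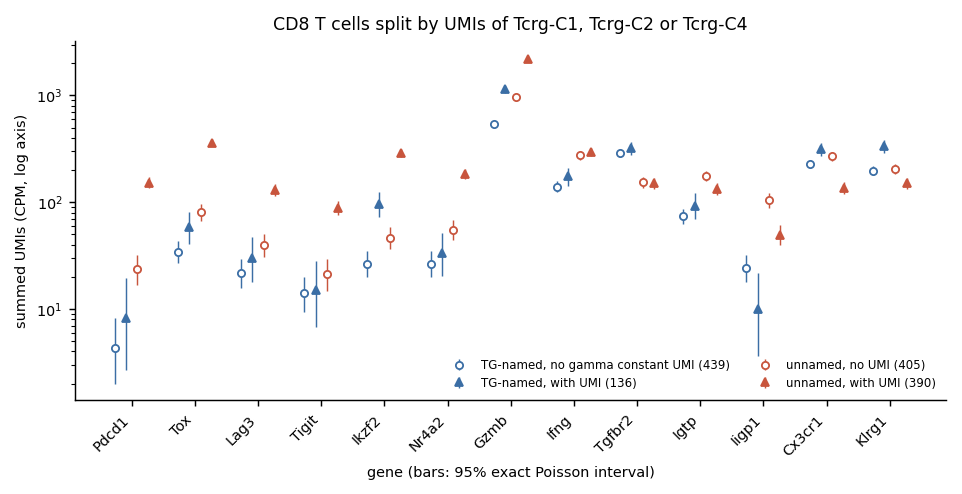
Summed level in CPM (log axis) of 13 genes in TG-named (blue) and unnamed (red) CD8 T cells with (triangles) or without (open circles) a UMI of Tcrg-C1, Tcrg-C2 or Tcrg-C4, with 95% exact Poisson intervals. For Pdcd1, Tox, Lag3, Tigit, Ikzf2 and Nr4a2 the unnamed cells with such a UMI lie above the other 3 groups, while for Ifng and Tgfbr2 both unnamed groups lie near each other.

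A β chain segment also went with these cells. Trbv15, at chr6:41141188-41141658, took 15 of 219 Trbv UMIs (6.85%, 3.88 to 11.05) in TG-named cells and 112 of 435 (25.7%, 21.7 to 30.1) in unnamed cells. In unnamed cells with a γ constant UMI it took 102 of 259 (39.4%, 33.4 to 45.6) and was seen in 69 of the 168 cells with any Trbv UMI, and in unnamed cells without it took 5.68%. Among unnamed cells with a Pdcd1 UMI it took 81 of 135 (60.0%, 51.2 to 68.3), in 56 of 92 cells, and among those without Pdcd1 10.3%. No cell held more than 4 Trbv15 UMIs, so no single cell made this share. Trbv15 was picked after its values were seen. Because most cells held no Trbv UMI and no receptor was assembled, the number of clones cannot be read from these files.

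Within the unnamed cells, the 158 with and the 637 without a Pdcd1 UMI were set side by side as a description, since Pdcd1 chose them. The cells with Pdcd1 were higher in Cd200r2 (3.08), Car2 (2.87), Tox (2.51), Tnfrsf9, which encodes 4-1BB (2.35), Tigit (2.32), Lag3 (2.30), Nr4a2 (2.22), Ikzf2 (1.73) and Ccl3 (1.59). They were lower in Gzmm (-4.28), Cx3cr1 (-3.17), Klrg1 (-2.16) and Il7r (-1.77). Mki67, a gene of dividing cells, stood at -1.75 in UMIs, but was seen in a like share of cells, 14.6% with and 15.7% without Pdcd1. The log2 ratio of Ifng was -0.01 between the cells with and without a Pdcd1 UMI. Their median depth was 3652 and 3402 UMIs. The CD44 antibody, read below, was lower in the cells with Pdcd1, with median centred log ratios of 2.16 with and 3.01 without.

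Killing genes were mostly higher. Of 17 measured members, 15 were higher and 2 lower, beside 62.5% of all genes higher. Their median was 0.31, beside 0.78 for the NK cell markers given above. Gzmb, granzyme B, stood at 678 CPM (647 to 710) and 1621 CPM (1579 to 1664), a log2 ratio of 1.26, and Gzmk, granzyme K, at 73.8 CPM (63.9 to 84.9) and 235.6 CPM (219.7 to 252.4), a log2 ratio of 1.67. Gzma, granzyme A, was the most abundant, with 9092 and 17528 UMIs (0.58). Prf1, perforin, stood at 0.11 (-0.09 to 0.32), Nkg7 at 0.48 and Fasl at 0.69. Gzmm went against the other granzymes, with 220.3 CPM (202.9 to 238.9) in TG-named and 44.7 CPM (37.9 to 52.3) in unnamed cells, in 34.8% and 9.18% of cells. In B cells all 17 measured killing genes were higher among the unnamed, with a median of 0.48 and Gzma at 201.9 and 332.6 CPM.

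Among 16 cytokines and chemokines, 9 were higher and 7 lower, beside 62.5% of all genes higher, with a median of 0.32. In B cells 13 of 16 were higher with a median of 0.49, Ccl3 with 158 and 369 UMIs (1.22) and Ccl4 with 256 and 415 (0.70). Ccl3 (87.3 and 344.1 CPM, 1.98) and Ccl4 (241.0 and 591.3 CPM, 1.30), chemokines of activated T cells, and Xcl1 (79.4 and 159.6 CPM, 1.01), which attracts cross-presenting dendritic cells, were at least 2-fold higher, as was Csf2, with 5 and 26 UMIs. Ccl5, with 28468 and 45094 UMIs, stood at 0.29, Tnf at 0.34, Il2 at -0.24 on 33 and 36 UMIs, and Ltb at -0.05. Xcl1 did not keep its direction when cells with UMIs of other lineages, or cells with γδ gene UMIs, were left out, and Ccl4 fell under 2-fold (0.74) without the latter.

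Genes of tissue-resident T cells were higher in 12 of 15, beside 62.5% of all genes, with a median of 0.77. At least 2-fold higher were 6 of them, beside 7.32% of all genes. Rgs1, a regulator of chemokine receptor signals, stood at 617 and 2074 UMIs (1.38), Nr4a2, a nuclear receptor induced by antigen, at 75 and 424 (2.13), and Cd7 at 2072 and 5511 (1.04). Cxcr6, a receptor that holds T cells in the liver, stood at 411 and 908 UMIs (0.77), Itga1 at 0.44 and Cd69 at -0.15. The list was higher in 13 of 14 measured genes in B cells too, with a median of 0.81, and there Rgs1 stood at 1.29.

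Naive and memory genes went the other way, with 13 of 18 lower in unnamed cells, beside 37.5% of all genes, and a median of -0.31. Il7r, the receptor for the survival cytokine IL-7, stood at 613.1 CPM (583.7 to 643.5) and 299.4 CPM (281.5 to 318.3), a log2 ratio of -1.03. Tcf7, which encodes TCF-1 of naive and memory cells, stood at 449.3 and 233.9 CPM (-0.94), Satb1 at -0.97, Lef1 at -0.53 and Klf2 at -0.47. Dapl1 (171 and 48 UMIs) and Nsg2 (361 and 166 UMIs) were lower by over 2-fold. Igfbp4 went against the list, at 48 and 191 UMIs, with 21 and 57 cells. In B cells the list had 11 of 17 higher and a median of 0.29.

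Terminal effector genes were split, with 14 of 25 higher, beside 62.5% of all genes, 11 lower, none past 2-fold and a median of 0.13. S1pr5 (-0.77), Ly6c2 (-0.62), Klrg1 (-0.37) and Cx3cr1 (-0.31) were lower, and Lgals3 (0.90), Prdm1, which encodes BLIMP-1 (0.71), and Itga4 (0.49) higher. Among NK receptors, 18 of 24 were higher, 8 by at least 2-fold, beside 62.5% and 7.32% of all genes, with a median of 0.68. With equal weight for each cell 15 were higher, with a median of 0.42. In cells with and without a γ constant UMI 15 and 13 were higher, with medians of 0.36 and 0.42. Klrc1, which encodes NKG2A (0.89), Klre1 (0.87), Klrk1, which encodes NKG2D (0.67), and the adaptors Tyrobp (1.02) and Fcer1g (0.99) were higher, Klra8 was lower on 22 and 10 UMIs, and Ncr1 stood at -0.10. B cells showed 21 of 23 NK receptor genes higher, with a median of 0.91. Cell cycle genes (31 of 35) and heat shock genes (13 of 14) were also mostly higher in unnamed B cells. Immediate early and NF-κB genes (16 of 33) were not. Whether the B cell list counts go beyond a tilt of all genes was not tested.

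Cell cycle genes were lower in 28 of 35 (31 after TMM scaling), none by 2-fold, with a median of -0.15, Mki67 at -0.11 and Top2a at -0.19. Beside this and the next counts stand 37.5% of all genes lower and 62.5% higher. Immediate early and NF-κB genes were higher in 28 of 33 (22 after TMM scaling) with a median of 0.21, such as Atf3 (20 and 71 UMIs), Tnfaip3 (0.59) and Dusp2 (0.66), while Fos (0.10) and Jun (0.03) differed little. Of 14 BCL-2 family genes 11 were higher with a median of 0.54, Bcl2 standing at 0.63 and Bcl2a1d, which may share reads with its paralogs, at 27 and 134 UMIs, and Bbc3, which encodes PUMA, at -1.03. Among costimulatory genes, Tnfrsf9 stood at 32 and 182 UMIs (2.14) and Sh2d2a at 0.81, with a median of 0.23 over 15 genes.

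Most of the remaining lists had medians from -0.01 to 0.25, beside 0.10 for all genes. Heat shock genes had a median of 0.25 over 13 genes, the Gimap family 0.17 over 8, T cell identity genes 0.07 over 16, the Ly6 family 0.10 over 8, glycolysis genes 0.09 over 20, chemokine receptors 0.02 over 11 and cytokine receptors -0.01 over 18. After TMM scaling the medians of T cell identity genes (-0.02), chemokine receptors (-0.07), cytokine receptors (-0.10) and glycolysis genes (-0.0047) were below 0. The list of sex genes had 2 measured members, both lower, with a median of -0.37.

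**Figure D5:**
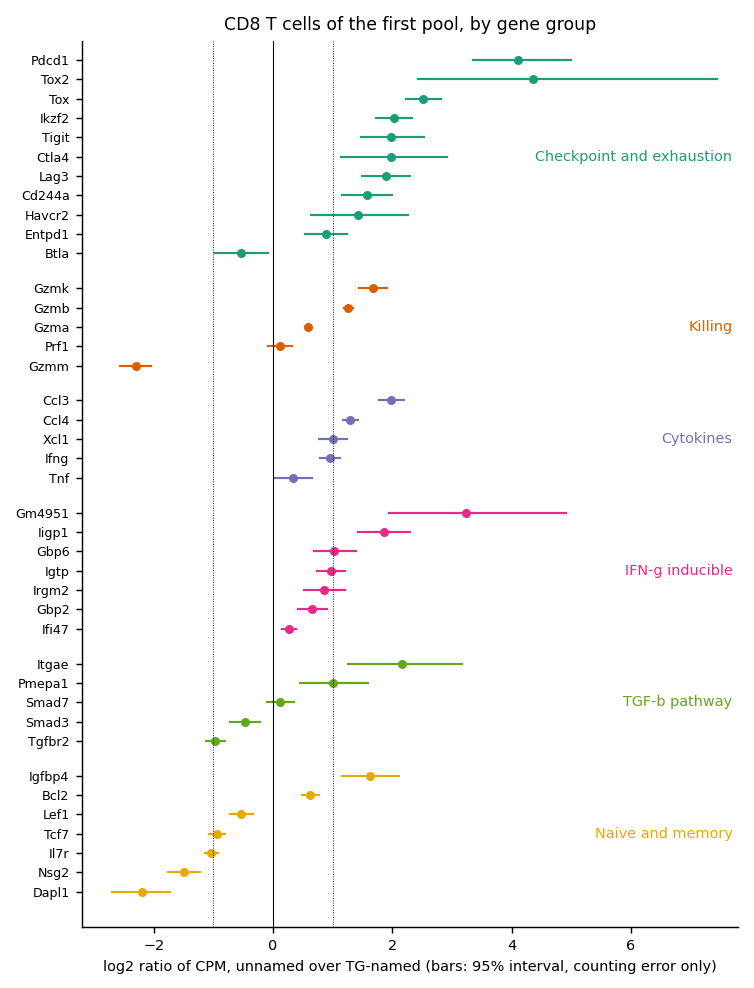
Log2 ratio of CPM, unnamed over TG-named CD8 T cells, for named genes of 6 groups, with 95% intervals that reflect counting error only and dotted lines at 2-fold. Of the genes drawn, the checkpoint genes other than Btla and the IFN-γ inducible genes lie right of 0, and Gzmm, Tgfbr2, Tcf7, Il7r, Nsg2 and Dapl1 lie left of it.

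The surface proteins were read as antibody counts, of which TG-named cells held a median of 1619 and unnamed cells 1164. As shares of all antibody counts of the group, 46 antibodies with at least 100 counts had a median log2 ratio of 0.36, with 14 at least 2-fold higher and 0 lower. The median count per cell, however, was lower in unnamed cells for 25 antibodies and higher for 5. CD279, which is PD-1, took 0.118% and 0.312% of the counts, but its median was 2 counts per cell in both groups, and 2 in unnamed cells with and without a Pdcd1 UMI, where the median centred log ratios were -0.13 and -0.52. CD366, which is TIM-3, stood at 2.14, CD103 at 1.93, TIGIT at 1.24 on 65 and 172 counts and CD223, which is LAG-3, at 0.93. Among antibodies to proteins of other cells, TER-119 of red cells stood at 1.38 and CD138 of plasma cells at 1.46. These stood near CD279 and above TIGIT and CD223. CD279, TIGIT and CD223 were thus not separable from background. CD366 and CD103 stood above TER-119 and CD138, but the median of CD366 was 0 counts per cell in both groups. That of CD103 was 1 in both. The checkpoint proteins were therefore not read further at this depth.

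For some abundant antibodies the direction depended on the measure. CD44, which marks antigen-experienced cells, had a median of 131 counts in TG-named and 80 in unnamed cells, and CD5 of 88 and 44. As shares of all antibody counts these stood at log2 ratios of 0.10 for CD44 and 0.02 for CD5, and as differences of the median centred log ratio, on the natural log scale, at -0.32 and -0.53. CD43 was higher by all of these measures, with medians of 66 and 77, a log2 ratio of 0.62 and a difference of 0.32, and CD49b, with medians of 12 and 4, was lower by all, at -0.50 and -0.80. CD90.2, the most abundant, was also lower by all, with medians of 697 and 393, at -0.18 and -0.50. So were TCR-β (87 and 52, -0.11 and -0.39) and CD8b (27 and 16, -0.13 and -0.42). By a cut between the peaks of the centred log ratio of CD44, 88.2% of TG-named and 66.3% of unnamed cells were CD44-high. This cut did not set naive cells apart from effector cells. In CD44-low cells, Gzma was seen in 80.9% of TG-named and 81.0% of unnamed cells, and Gzmb in 54.4% and 72.8%. Klrg1 was seen in 54.4% and 18.3% of them, beside 27.2% and 31.5% of CD44-high cells. Among CD44-high cells, log2 ratios were 3.20 for Pdcd1, 1.87 for Tox, 1.04 for Ifng and -0.93 for Tgfbr2. Among the 68 and 268 CD44-low cells they were 4.78 for Pdcd1 (2 and 198 UMIs), 3.19 for Tox and 0.42 (-0.02 to 0.88) for Ifng. Of the unnamed cells, 35.8% of the CD44-low and 11.8% of the CD44-high held a Pdcd1 UMI.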

How the data were processed

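The deposited library tables hold UMI counts per cell for genes and for 49 antibodies, which the authors made with the BD Rhapsody pipeline 1.9 (file header), with reads aligned to mm10 by STAR (methods) and UMIs corrected for sequencing errors. The deposited cell table names 4647 cells of the first pool as TG and gives a cell type. The filter behind it is not given in the sources used here. It and the normalized tables hold no value used for a gene here. Members and lists were chosen with earlier results of these data known.

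UMIs of the chosen cells were summed by name and divided by all gene UMIs (CPM). Gene values are log2 ratios without a pseudocount, and list counts and medians use 0.5 UMI added to each group and members with at least 10 UMIs. Gene values and ranges under the alternatives also add 0.5 UMI, but those given with the CD44 and γ constant splits do not. "Called" means past 2-fold. Named genes are list members, and the 12 highest and 12 lowest ratios. Ranked genes needed 100 UMIs in all, 10 in each group, no more than 50% of the higher group's UMIs in 3 cells and the same sign under each scaling. Receptor segments, sex genes and the genes of the rule were left out of this ranking. Scrublet (scanpy 1.11.5) marked 3 of 10026 cells (0.0299%) as doublets, 0 of them chosen, so it had not worked and doublets were kept. Detection was also read after thinning to 1000 UMIs per cell. TMM factors came from edgeR 4.0.16 and were used for scaling only. Scripts were tested on simulated data. Python 3.11.15, numpy 2.4.6, scipy 1.17.1 and pandas 2.3.3 were used. Alternatives changed scaling, depth, quality limits and the cells kept.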

Additional observations from a re-analysis of the deposited data

How the results depend on the processing

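No paired analysis was possible because each pool is a single library with the same replicate number, and for the same reason no replicate could be left out. Of 82 values of the main results under the alternatives, 69 stayed within limits and 13 moved, where the limits were 1.5 times for counts and median sizes and the 95% counting interval for Ifng and Tgfbr2. The number of genes at least 2-fold higher was 25 with thinned cells, 30 without cells holding UMIs of other lineages, 50 without cells holding γδ gene UMIs (chosen after seeing the data), 809 with a minimum of 10 UMIs and 2942 with no minimum. The number lower was 3, 11, 15, 207 and 1508 in the same order. The first 3 settings leave fewer genes with 100 UMIs (2470, 2563 and 5257 in place of 6969). With no minimum the median size of the log2 ratio was 0.37. Ifng stood at 0.74 with equal weight for each cell and at 0.71 without other lineages (169 TG-named and 259 unnamed cells), within 0.71 to 1.04 over all alternatives, and the cause was not tested. Among values past 2-fold, those that changed sign were Cd7 (-0.11) and Xcl1 (-0.26) without γδ gene UMIs, Xcl1 (-0.094) and Ly6i (-1.61) without other lineages, and CD28 (-0.11) by centred log ratio. The ranges were -1.06 to -0.91 for Tgfbr2, 2.34 to 5.58 for Pdcd1, 1.21 to 2.76 for Tox, 0.71 to 1.98 for the checkpoint median and 0.45 to 0.89 for that of the GTPases. At any size, 5437 of 5923 gene values, 322 of 360 list medians and 34 of 45 antibodies kept their sign, and the ranges crossed 0 for 11 of 24 list medians, among them cell cycle (-0.61 to 0.02), terminal effector (-0.09 to 0.29), TGF-β pathway (-0.04 to 0.23) and interferon-stimulated genes (-0.04 to 0.13), and for genes such as Klrg1 (-0.62 to 0.10) and Cx3cr1 (-0.40 to 0.30). Without γδ gene UMIs Tnfrsf9 (0.06), Rgs1 (0.47), Tigit (0.60), Ikzf2 (0.82), Gzmb (0.86), Lag3 (0.87) and Il7r (-0.60) no longer passed 2-fold, among others, nor did Tyrobp (0.30) without other lineages. Of 748 values of the 50 listed genes past 2-fold, 744 kept their sign and 665 stayed past 2-fold. All these tallies but that of antibodies count the removal of Scrublet doublets, which took out 0 chosen cells and repeats the main values. Not every antibody with at least 100 counts was put through the antibody tally.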
